A study of Mus musculus with 2 samples.

Results

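The DNA replication machinery was described here as 42 genes, chosen by name for their roles in licensing, the replication fork, DNA synthesis and nucleotide supply, out of 55640 gene records measured in LPC-HRas cells. All 42 were found by symbol, 1 record each, and all lay at 5 TPM or more in both libraries. LPC-HRas is a mouse liver tumour cell line, labelled as hepatocellular carcinoma. It was infected with a lentivirus that carried either shETV4, a hairpin against the ETS-family transcription factor Etv4, or shRFP, the control hairpin against a red fluorescent protein. Total RNA was sequenced in 1 shETV4 library and 1 shRFP library, and the labels name 1 hairpin for each. With 1 library a group there were no replicates, so nothing below carries a test or an error, and every value describes these 2 libraries alone.

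Before a cell copies its DNA, the origin recognition complex (ORC), Cdc6 and Cdt1 load the Mcm2 to Mcm7 ring onto origins, a step called licensing. In S phase, kinases with Mcm10, Cdc45 and the GINS proteins turn the loaded ring into an active helicase. Polymerase alpha with primase then starts each strand, and polymerases delta and epsilon extend it, held by the sliding clamp PCNA. Many of these genes are known to be switched on together by E2F factors as cells leave G1. High transcript levels of the machinery are a usual mark of proliferating tumour cells.

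Levels are TPM, which scale reads to transcript length and to the library total, so they may be compared between genes. Depth cannot be recovered from TPM, which leaves the counting error of each value unknown. A difference is log2(TPM + 1) with shETV4 minus log2(TPM + 1) with shRFP; the added 1 makes the differences of scarce transcripts look smaller than they are. A gene was called lower or higher past 2-fold on that scale, and the 12968 named genes that reached 1 TPM in either library were evaluated. Etv4 itself was at 16.2 TPM with shETV4 and 73.2 TPM with shRFP, 4.52-fold lower. None of 7 hepatocyte markers reached 1 TPM in either library, and Alb was listed at 0 in both. Of 4 hepatoblast and tumour markers, Gpc3, Dlk1 and Igf2 were present, at 50.7, 314 and 123 TPM with shETV4 against 41.0, 205 and 116 TPM with shRFP, while Afp stayed below 1 TPM. None of 4 immune and none of 3 endothelial markers reached 1 TPM. Of 4 stellate cell and fibroblast markers, Pdgfrb and Dcn did, and the 4 summed to 87.6 TPM with shETV4 and 66.4 TPM with shRFP. Of 4 biliary and progenitor markers, Krt19 and Sox9 did, and the 4 summed to 81.9 TPM with shETV4 and 55.7 TPM with shRFP. The part of these marker levels in the results below was not tested. A change in the share of cells in S phase and a change in transcript per cell cannot be told apart in such bulk RNA.

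Replication genes differed by modest amounts between the libraries, mostly toward lower levels with shETV4. Of the 42, 3 were more than 2-fold lower with shETV4 (Pola1, Rfc1 and Orc2) and none was higher, while 39 lay within 2-fold. That is 7.14% called lower, close to the 7.06% of all evaluated genes called lower, so the number of calls is no result about replication genes. Among all evaluated genes 3.39% were called higher. The median difference was -0.24 for the 42 genes and -0.10 for all evaluated genes, and 35 of 42 (83.3%) lay below 0, against 58.3% of all evaluated genes. Within 1.2-fold lay 22 of 42 (52.4%), against 41.0% of all evaluated genes. Past 1.5-fold, 7 of the 42 were lower and none higher, against 20% and 8.61% of all evaluated genes. The replication genes were well expressed, with a median of 69.7 TPM with shETV4 and 74.8 TPM with shRFP, where the evaluated genes had medians of 14.7 and 16.7 TPM. Together they summed to 3473 TPM with shETV4 and 4073 TPM with shRFP, a ratio of 0.853. The scale matters for shifts of this size. The trimmed mean of log ratios between the libraries was -0.13. With it divided out 27 of the 42 genes lay below 0, with a median of -0.12. The median of all evaluated genes rose as well, so its distance from that of the 42 genes stayed much the same.

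**Figure D1:**
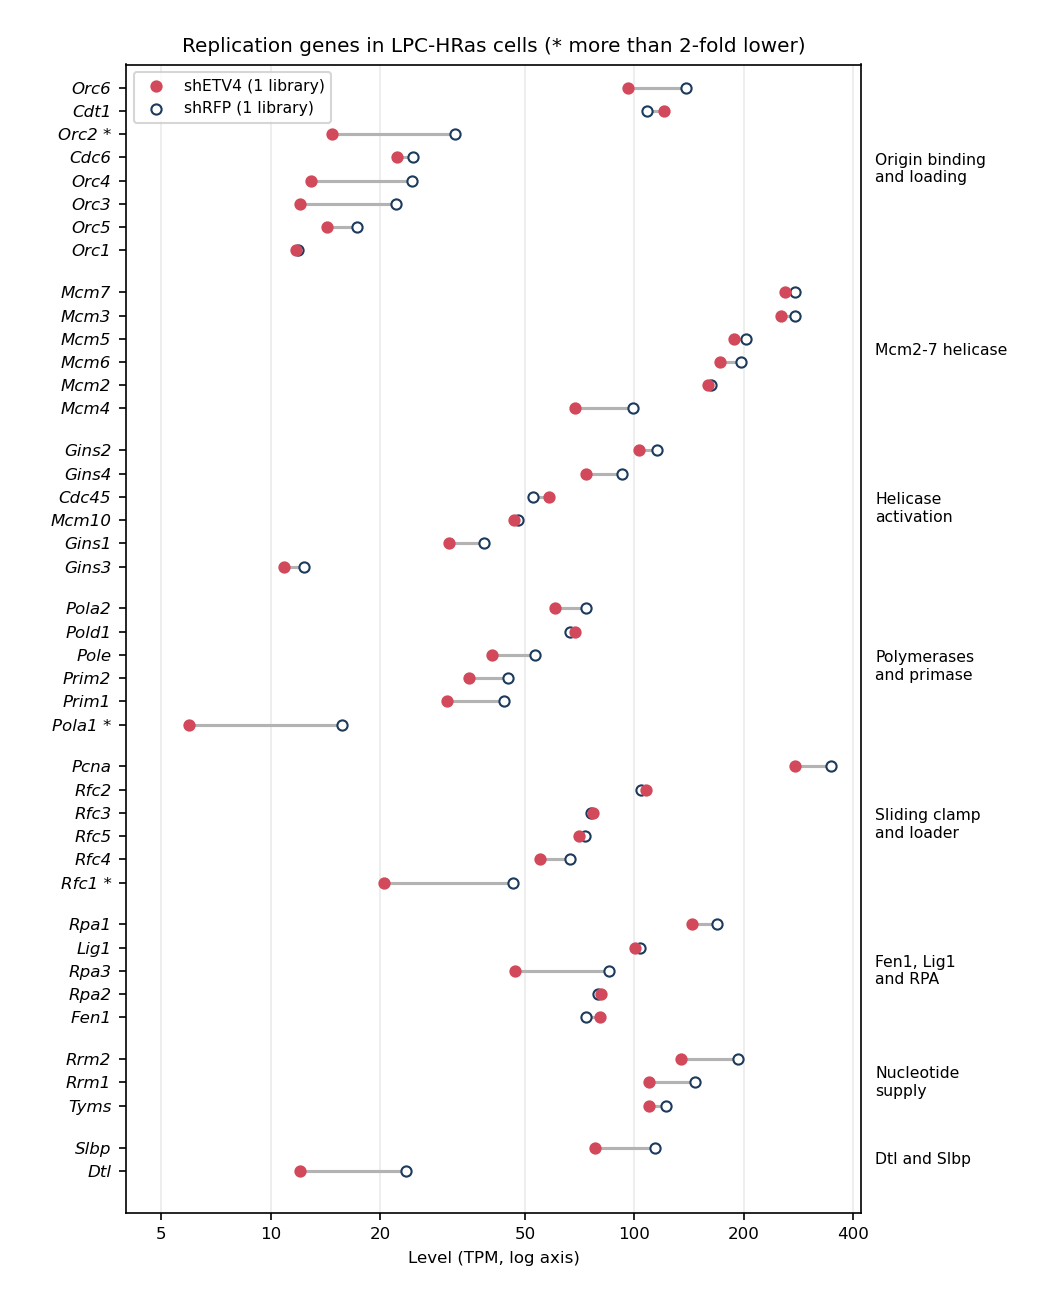
Level of each of the 42 replication genes in TPM on a log axis, filled points for shETV4 and open points for shRFP, 1 library each, grouped by role. The 3 starred genes, Orc2, Pola1 and Rfc1, lie more than 2-fold lower with shETV4, while the points of most other genes lie close together.

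The origin recognition complex marks the sites where replication can begin. Orc1, the subunit whose level is known to follow the cell cycle in mammals, was at 11.7 TPM with shETV4 and 11.9 TPM with shRFP, a difference of -0.019. Orc2, a core subunit, was at 14.8 TPM with shETV4 and 32.1 TPM with shRFP, 2.17-fold lower, with a difference of -1.07. Its position is chr1:58462771-58505109 (GRCm38, minus strand), where 29.8% of its exonic bases overlap exons of other genes. The largest overlap is with Nif3l1, which was at 26.3 TPM with shETV4 and 23.0 TPM with shRFP. The call of Orc2 was lost with a pseudocount of 5 (-0.91), with the trimmed mean divided out (-0.95) and after adjustment for GC content (-0.54). Orc3 and Orc4, further core subunits, came close to the same size before adjustment for GC content. Orc3 was at 12.0 TPM with shETV4 and 22.1 TPM with shRFP, and Orc4 at 12.9 TPM with shETV4 and 24.5 TPM with shRFP, differences of -0.82 and -0.87. Orc5, which binds ATP like Orc1 and Orc4, was at 14.3 TPM with shETV4 and 17.3 TPM with shRFP. Orc6, a small subunit, was far more abundant than the others, at 95.9 TPM with shETV4 and 138 TPM with shRFP. It made up 59.3% of the summed TPM of the 6 ORC genes with shETV4 and 56.2% with shRFP. In the shETV4 library Orc1 to Orc5 lay close together, between 11.7 and 14.8 TPM. In the shRFP library they spread between 11.9 and 32.1 TPM. After adjustment for GC content Orc3, Orc4 and Orc6 came to -0.149, -0.065 and -0.147, and Orc1 and Orc5 to 0.32 and 0.38.

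The loaders that act with ORC differed less. Cdc6, the ATPase that joins ORC on the origin, was at 22.3 TPM with shETV4 and 24.6 TPM with shRFP. Cdt1, which brings in the helicase, was at 121 TPM with shETV4 and 109 TPM with shRFP, and its difference of 0.15 was the highest of all 42. Origin binding and loading genes had a median difference of -0.39, with 7 of 8 below 0. After adjustment for GC content the median was -0.028, with 4 of 8 below 0.

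The helicase ring had among the most abundant transcripts of the machinery and its subunits differed little between the libraries. Mcm7 was at 259 TPM with shETV4 and 276 TPM with shRFP, and Mcm3 at 253 TPM with shETV4 and 276 TPM with shRFP. Mcm5 was at 188 TPM with shETV4 and 203 TPM with shRFP, Mcm6 at 172 TPM with shETV4 and 196 TPM with shRFP, and Mcm2 at 160 TPM with shETV4 and 162 TPM with shRFP. Their 5 differences lay between -0.19 (Mcm6) and -0.023 (Mcm2). Mcm4 stood below the rest of the ring, at 68.5 TPM with shETV4 and 98.9 TPM with shRFP, a difference of -0.52. After adjustment for GC content Mcm4 came to -0.14, within the range of the other 5, from -0.19 (Mcm3) to 0.094 (Mcm6). All 6 were lower with shETV4 on the deposited scale, at a median of -0.12. With the trimmed mean divided out, that median turned to 0.0097, and the median of all evaluated genes rose as well.

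Genes that activate the helicase were also within 2-fold. Cdc45, which with GINS completes the active helicase, was at 58.3 TPM with shETV4 and 52.5 TPM with shRFP. Mcm10, needed for the start of unwinding, was at 46.7 TPM with shETV4 and 47.8 TPM with shRFP. The 4 GINS genes kept their proportions. Gins2 made up 47.3% of the GINS sum with shETV4 and 44.6% with shRFP, and Gins3 4.98% with shETV4 and 4.76% with shRFP. Gins1, at 30.9 TPM with shETV4 and 38.6 TPM with shRFP, and Gins4, at 73.5 TPM with shETV4 and 92.5 TPM with shRFP, had differences of -0.31 and -0.33. Gins2 was at 103 TPM with shETV4 and 115 TPM with shRFP, but 67.3% of its exonic sequence overlaps exons of other genes. The largest overlap is with Gse1, which was at 26.6 TPM with shETV4 and 19.0 TPM with shRFP. Gins3 was the scarcest, at 10.9 TPM with shETV4 and 12.3 TPM with shRFP. The median of the 6 activation genes was -0.16.

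Among the polymerases, Pola1 stood apart by value. Pola1, the catalytic subunit of polymerase alpha, was at 5.95 TPM with shETV4 and 15.7 TPM with shRFP, 2.64-fold lower. Its difference of -1.26 was the lowest of the 42, and it had the lowest level of them in the shETV4 library. Its position is chrX:93304767-93632155 (GRCm38, minus strand), with no exonic base in another gene's exons. Its partners in the polymerase alpha-primase complex differed less. Pola2, the regulatory subunit, was at 60.3 TPM with shETV4 and 73.7 TPM with shRFP. Prim1, the catalytic primase subunit, was at 30.5 TPM with shETV4 and 43.7 TPM with shRFP, and Prim2, the large primase subunit, at 35.1 TPM with shETV4 and 44.9 TPM with shRFP. The ratio of Pola1 to Pola2, in which the library scale cancels, was 0.0986 with shETV4 and 0.213 with shRFP. A relation to GC content does not cancel in it, as transcripts hold 41.8% G and C for Pola1 and 54.3% for Pola2. After adjustment for GC content Pola2 came to -0.35. The call of Pola1 was lost with a pseudocount of 5 (-0.92) and after adjustment for GC content (-0.53). The catalytic subunits of the other replicative polymerases were within 2-fold: Pold1 of polymerase delta was at 68.8 TPM with shETV4 and 66.5 TPM with shRFP, and Pole of polymerase epsilon at 40.7 TPM with shETV4 and 53.2 TPM with shRFP.

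The clamp loader, like polymerase alpha-primase, had 1 subunit lower than its partners before adjustment for GC content. After it Pola1 and Pola2 came to -0.53 and -0.35, and Prim1 and Prim2 to 0.0285 and 0.0318. Pcna, the clamp, had the highest level of the 42 genes in both libraries, at 276 TPM with shETV4 and 347 TPM with shRFP. Rfc1, the large subunit of the clamp loader, was at 20.5 TPM with shETV4 and 46.2 TPM with shRFP, 2.25-fold lower, with a difference of -1.13. Its position is chr5:65261850-65335670 (GRCm38, minus strand), free of other genes' exons. The 4 small loader subunits lay between -0.27 (Rfc4) and 0.039 (Rfc2). Rfc2 was at 107 TPM with shETV4 and 104 TPM with shRFP, Rfc3 at 77.2 TPM with shETV4 and 75.8 TPM with shRFP, Rfc5 at 70.5 TPM with shETV4 and 73.1 TPM with shRFP, and Rfc4 at 55.0 TPM with shETV4 and 66.4 TPM with shRFP. Rfc1 made up 6.21% of the summed TPM of the loader with shETV4 and 12.6% with shRFP. The call of Rfc1 was lost after adjustment for GC content, at -0.75, the lowest adjusted value of the 42.

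**Figure D2:**
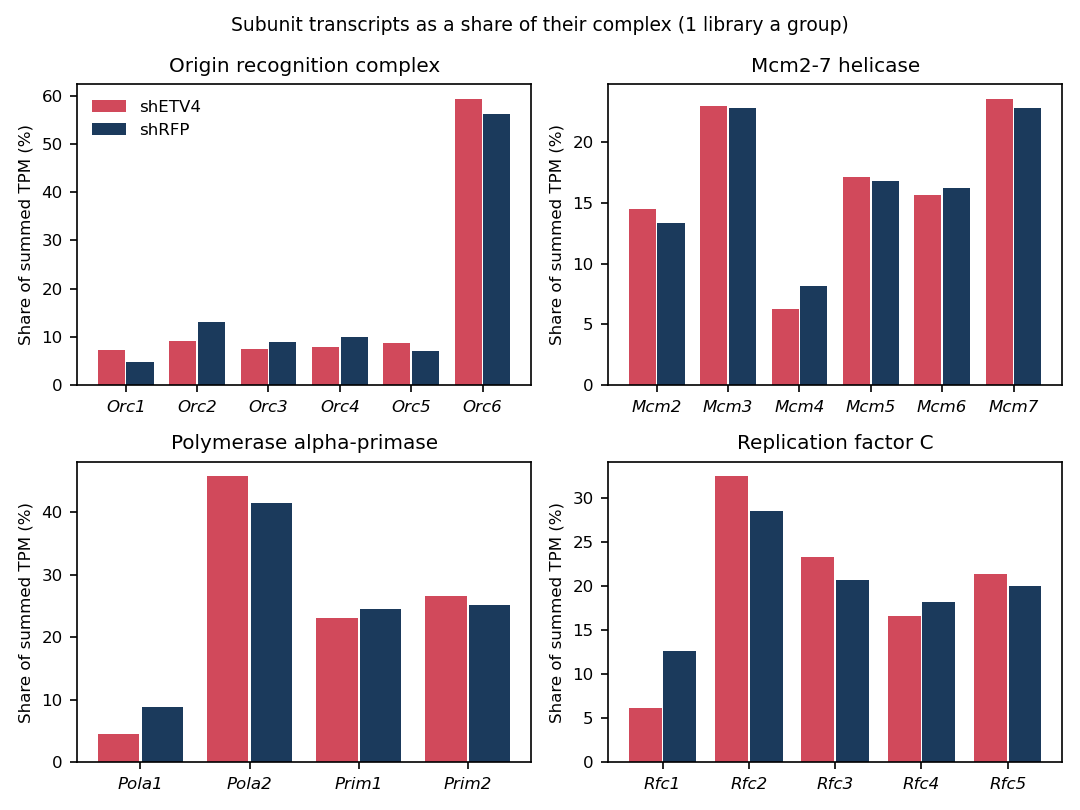
Each subunit's TPM as a percentage of the summed TPM of its complex, bars for shETV4 left of shRFP, 1 library each, for ORC, the Mcm2 to Mcm7 ring, polymerase alpha-primase and the clamp loader. Rfc1 takes 6.21% with shETV4 and 12.6% with shRFP and Pola1 takes 4.51% with shETV4 and 8.81% with shRFP, while the widest gap in the helicase ring is that of Mcm4, at 6.23% with shETV4 and 8.15% with shRFP.

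Lagging-strand and single-strand binding genes had the median nearest 0, at -0.042. Fen1, the flap nuclease, was at 80.6 TPM with shETV4 and 73.6 TPM with shRFP, although 84.2% of its exonic sequence overlaps exons of other genes. The largest overlap is with the predicted gene Gm10143, itself at 0.76 TPM with shETV4 and 2.14 TPM with shRFP. Lig1, the ligase that seals Okazaki fragments, was at 100.4 TPM with shETV4 and 103 TPM with shRFP. Rpa1 and Rpa2, the large and middle subunits of the single-strand binding protein, were within 1.2-fold. Rpa1 was at 144 TPM with shETV4 and 169 TPM with shRFP, and Rpa2 at 80.9 TPM with shETV4 and 79.3 TPM with shRFP. Rpa3, the small subunit, differed from them, at 46.9 TPM with shETV4 and 85.0 TPM with shRFP, a difference of -0.84. The ratio of Rpa3 to Rpa2 was 0.580 with shETV4 and 1.07 with shRFP. After adjustment for GC content the differences of Rpa3 and Rpa2 came to -0.037 and 0.026.

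Nucleotide supply genes were all lower with shETV4 on the deposited scale and within 2-fold, at a median of -0.42. Rrm2, the ribonucleotide reductase subunit whose level is known to rise in S phase, was at 135 TPM with shETV4 and 193 TPM with shRFP. Rrm1, the large subunit, was at 109 TPM with shETV4 and 147 TPM with shRFP, so the ratio of Rrm2 to Rrm1 was 1.23 with shETV4 and 1.31 with shRFP. Tyms, which makes thymidylate, was at 109 TPM with shETV4 and 122 TPM with shRFP. After adjustment for GC content Rrm1, Rrm2 and Tyms came to 0.17, -0.27 and -0.067. Dtl, the substrate receptor of the ubiquitin ligase that removes Cdt1 in S phase, was just inside 2-fold, at 12.0 TPM with shETV4 and 23.6 TPM with shRFP (-0.92). Slbp, which binds histone messages in S phase, was at 78.0 TPM with shETV4 and 114 TPM with shRFP (-0.55). Cdt1 and Dtl had differences of 0.15 and -0.92, which came to 0.0098 and -0.32 after adjustment for GC content.

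The size of the difference followed the base composition of the transcripts. GC content was taken as the median over a gene's annotated transcripts. It can differ from that of the coding sequence: 44.37% against 40.68% for Orc2, and 57.75% against 62.48% for Cdt1. The adjusted values of single genes depend on this choice, which was not varied. Over the 42 genes the difference had a Pearson r of 0.71 and a Spearman rho of 0.73 with GC content, and over 12947 evaluated genes r was 0.40 and rho 0.52. Genes are not independent replicates, and all points share the same 2 libraries. The 14 replication genes with the lowest GC content, from 37.3% to 45.5%, had a median difference of -0.52, and all 14 lay below 0. The 14 genes from 46.2% to 50.7% had a median of -0.17, and the 14 genes from 50.9% to 60.7% a median of -0.047. Evaluated genes in the same 3 intervals of GC content had medians of -0.62, -0.19 and 0.092. Over the lowest interval 21.4% of them were called lower, and over the highest 1.82%. With transcript length the rho over the 42 genes was -0.057.

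After the running median over GC content was taken off each difference, the median of the 42 genes was -0.066, 27 lay below 0 and none was past 2-fold in either direction. Of the 12947 evaluated genes with a GC content, 6482 then lay below 0, 2.32% were past 2-fold lower and 4% higher. Orc4 and Rpa3, the genes with the lowest GC content at 37.3% each, came to -0.065 and -0.037. Pcna, at 42.4%, came to 0.32, Orc5 to 0.38 and Cdc45 to 0.38, the last 2 being the highest adjusted values. The cause of the relation to GC content was not tested.

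**Figure D3:**
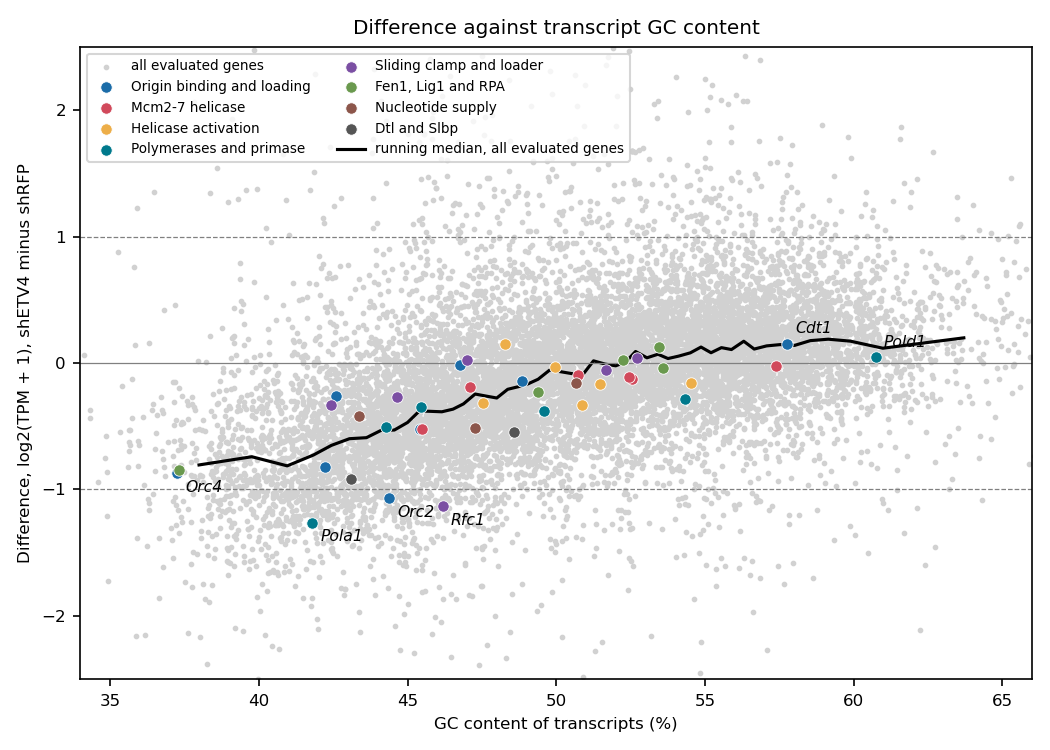
Difference in log2(TPM + 1), shETV4 minus shRFP, against transcript GC content in percent for the 42 replication genes coloured by role, over all evaluated genes in grey with their running median as a black line and dashed lines at 2-fold. Values beyond the axes are not drawn; the replication genes climb with GC content (r = 0.71), and Pola1, Rfc1 and Orc2 lie below the line.

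The contrast in composition can be read in coding stretches of genes from the same machine, taken from GENCODE M21 transcripts. They are shown because Pola1 and Pold1, and Rfc1 and Rfc2, are partners in function that differ in both GC content and difference. Each is the first stretch of 90 bases whose GC content is nearest to that of the whole coding sequence, 5′ to 3′, with G and C in capitals. The Pola1 stretch covers coding positions 76 to 165, that of Pold1 52 to 141, that of Rfc1 43 to 132 and that of Rfc2 55 to 144. The coding sequences hold 41.9% (Pola1), 60.7% (Pold1), 45.8% (Rfc1) and 54.5% (Rfc2) G and C.
Pola1: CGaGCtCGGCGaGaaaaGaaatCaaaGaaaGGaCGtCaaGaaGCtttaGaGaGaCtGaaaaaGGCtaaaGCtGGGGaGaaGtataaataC
Pold1: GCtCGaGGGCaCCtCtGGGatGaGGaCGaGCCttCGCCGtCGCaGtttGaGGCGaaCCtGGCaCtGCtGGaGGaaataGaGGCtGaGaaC
Rfc1: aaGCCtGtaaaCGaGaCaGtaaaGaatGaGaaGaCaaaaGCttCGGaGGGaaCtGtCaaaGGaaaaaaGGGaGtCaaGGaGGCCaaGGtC
Rfc2: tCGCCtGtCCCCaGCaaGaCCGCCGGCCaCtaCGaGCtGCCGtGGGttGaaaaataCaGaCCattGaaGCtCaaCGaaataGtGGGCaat
The pair with fewer G and C, Pola1 and Rfc1, had differences of -1.26 and -1.13, against 0.048 for Pold1 and 0.039 for Rfc2. These pairs were picked for that contrast, and other loader subunits do not follow it: Rfc4, with a lower transcript GC content than Rfc1 (44.6% against 46.2%), was at -0.27, and Rfc3, at 47.0%, was at 0.026.

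Promoter words, which the choice of genes did not use, were counted next. RefSeq promoters on GRCm38.p6, from 250 bases before to 50 after each start, were found for 35 of the 42. They were searched on both strands for 4 E2F-like words, TTTGGCGC, TTTCCCGC, TTTGGCGG and TTTCCCGG, and for CCGGAAG, a word like those bound by ETS factors, the family of Etv4. The words TTTGGCGC and TTTGGCGG share their first letters, and so do TTTCCCGC and TTTCCCGG, but within a pair no position on a strand can match both. At least 1 E2F-like word was present for 16 of 35 (45.7%), against 3.79% of 27025 genes in the promoter table and 7.18% of 9184 evaluated protein-coding genes. The word CCGGAAG was present for 14 of 35 (40.0%), against 9.93% and 21.2%. Of the 35, 10 held neither kind of word. A match describes letters and does not show that a factor binds there.

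For 5 of the genes an E2F-like word lay before the start in a stretch outside every GENCODE exon, and these stretches are printed because they show such a word in different parts of the machinery. They run 5′ to 3′ on the gene's strand, and capitals mark the words on either strand. The Mcm6 stretch is chr1:128359730-128359819 (minus), Mcm5 chr8:75109293-75109382 (plus), Cdc6 chr11:98907982-98908071 (plus), Pola1 chrX:93632271-93632360 (minus) and Dtl chr1:191575545-191575634 (minus), all on GRCm38.p6.
Mcm6: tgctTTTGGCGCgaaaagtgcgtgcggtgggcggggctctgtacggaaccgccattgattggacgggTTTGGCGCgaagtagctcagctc
Mcm5: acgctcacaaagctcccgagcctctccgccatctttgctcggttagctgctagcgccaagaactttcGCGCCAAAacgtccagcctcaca
Cdc6: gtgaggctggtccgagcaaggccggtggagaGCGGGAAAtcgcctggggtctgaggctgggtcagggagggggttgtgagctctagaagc
Pola1: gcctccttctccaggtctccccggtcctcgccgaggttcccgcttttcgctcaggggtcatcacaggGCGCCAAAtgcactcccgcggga
Dtl: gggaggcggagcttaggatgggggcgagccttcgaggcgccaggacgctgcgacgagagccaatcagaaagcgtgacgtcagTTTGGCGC
Genes with such a word did not share a difference: Mcm6, Mcm5 and Cdc6 were at -0.19, -0.11 and -0.14, and Pola1 and Dtl at -1.26 and -0.92. Over the 35 genes the median difference was -0.15 for the 16 with an E2F-like word and -0.27 for the 19 without. The 16 also had the higher median transcript GC content, 50.1% against 46.8%. Over evaluated protein-coding genes, counted here by record and above by symbol, the order was the other way. The median was -0.16 for the 659 with a word and -0.096 for the 8536 without. For the ETS-like word the median over the 35 genes was -0.21 for the 14 with it and -0.19 for the 21 without. Their median transcript GC contents were 45.7% and 48.8%. Over evaluated protein-coding genes the median was -0.101 for the 1948 with it and -0.0987 for the 7247 without.

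Further genes of replication, 52 in all and chosen by function, had the same median as the 42, at -0.24. Of these 6 (11.5%) were called lower and 1 (1.92%) higher, against 7.06% and 3.39% of all evaluated genes. The largest difference was that of Top1, which relaxes DNA ahead of forks, at 7.19 TPM with shETV4 and 34.2 TPM with shRFP, 4.76-fold lower and still at -1.40 after adjustment for GC content. Hells, a chromatin remodeller linked to DNA methylation, was at 4.27 TPM with shETV4 and 18.1 TPM with shRFP and at -1.10 after adjustment. Top1 and Hells were past 2-fold under each alternative pseudocount, scale and adjustment tried.

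The other 4 called lower had higher GC-adjusted values. Supt16, a subunit of the histone chaperone FACT, was at 22.3 TPM with shETV4 and 55.9 TPM with shRFP, while its partner Ssrp1 was at 299 TPM with shETV4 and 325 TPM with shRFP. Topbp1, a scaffold for helicase activation, was at 21.8 TPM with shETV4 and 46.7 TPM with shRFP. Dbf4, which activates the Cdc7 kinase, was at 22.7 TPM with shETV4 and 46.8 TPM with shRFP, while Cdc7 was at 8.71 TPM with shETV4 and 12.8 TPM with shRFP. Atad5, which takes PCNA off DNA, was at 1.88 TPM with shETV4 and 4.84 TPM with shRFP. Supt16, Topbp1, Dbf4 and Atad5 all came inside 2-fold after GC adjustment, at -0.77, -0.68, -0.45 and -0.23. Topbp1, Dbf4 and Atad5 were inside it also with a pseudocount of 5, at -0.95, -0.90 and -0.52, and with the trimmed mean divided out, at -0.94, -0.89 and -0.93. With the median ratio set to 1, Dbf4 and Atad5 were again inside it, at -0.94 and -0.98.

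All 9 genes on the control of initiation lay below 0, as did 58.3% of all evaluated genes. The median of the 9 was -0.50, and -0.33 after GC adjustment. Among them was Gmnn, the inhibitor of Cdt1, at 50.2 TPM with shETV4 and 58.6 TPM with shRFP. The highest differences of the further genes were those of Pold4, Pold2, Chtf8 and Chtf18. Pold4, the smallest subunit of polymerase delta, was at 30.2 TPM with shETV4 and 14.1 TPM with shRFP, a difference of 1.05 that was 0.91 after GC adjustment and 0.88 with a pseudocount of 5. Pold2, a further subunit of that polymerase, was at 303 TPM with shETV4 and 215 TPM with shRFP. Chtf8 and Chtf18, of an alternative clamp loader, were within 1.2-fold. Chtf8 was at 152 TPM with shETV4 and 127 TPM with shRFP, with 91.8% of its exonic sequence overlapping exons of other genes. Chtf18 was at 27.0 TPM with shETV4 and 23.5 TPM with shRFP. Nucleotide synthesis genes had no call among 11, at a median of -0.13, with Tk1, the S-phase thymidine kinase, at 230.4 TPM with shETV4 and 215 TPM with shRFP.

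**Figure D4:**
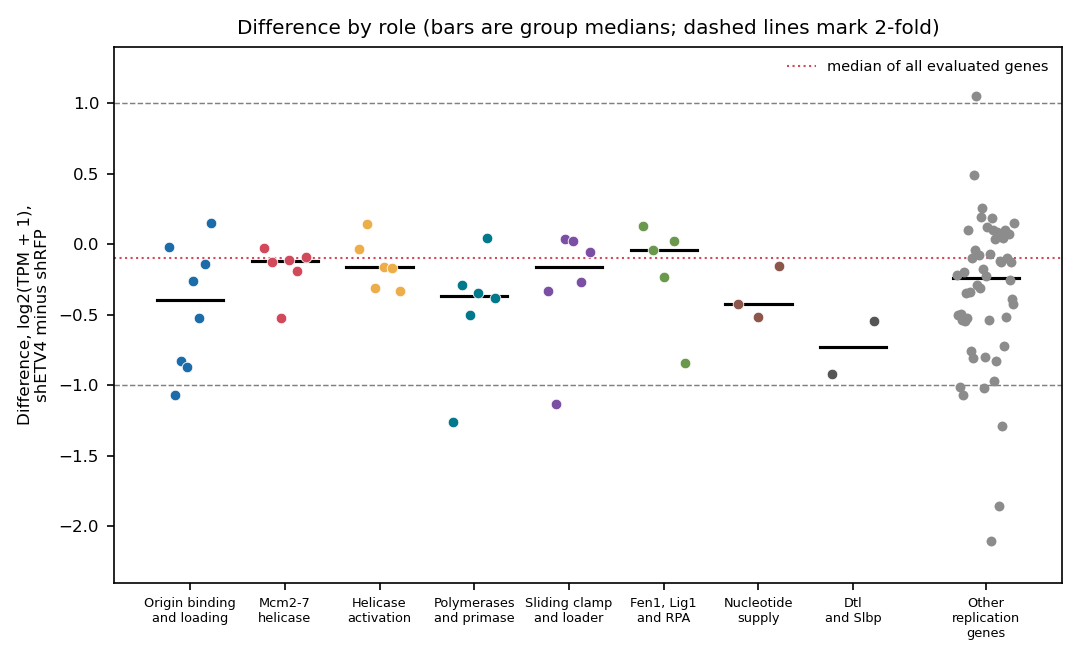
Difference in log2(TPM + 1), shETV4 minus shRFP, of each replication gene by role and of the 52 further genes, with bars at group medians, dashed lines at 2-fold and a dotted line at the median of all evaluated genes (-0.10). Group medians run from -0.73 for Dtl and Slbp to -0.042 for Fen1, Lig1 and RPA.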

How the data were processed

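The authors deposited 1 TPM value for each gene in each library; the unit was inferred from column totals of 999870 (shETV4) and 999999.77 (shRFP). The submitters' processing notes name HISAT2, RSEM and GRCm38.p4 without roles or versions. For the annotation, strand setting and filters, nothing is given in the sources used here. The value columns' names end in _2, whose meaning is not given. Depth cannot be recovered from TPM. Biotype, coordinates, GC content and exon overlap came from GENCODE M21 (GRCm38). GC adjustment subtracts the running median over 50 bins of evaluated genes. A search with BLAST+ 2.17.0 (95% identity over 200 bases) found copies of 7 replication genes at other loci; Pcna-ps2 and Tyms-ps, named as pseudogenes, were listed at 0, but 2 genes matched parts of genes at 1 TPM or more: Tyms matched Reep3 (11.2 TPM with shETV4, 17.4 TPM with shRFP), Wdr59 (16.4 TPM in both) and Map3k2 (2.57 TPM with shETV4, 5.46 TPM with shRFP), and Slbp matched Gas2l3 (2.69 TPM with shETV4, 4.78 TPM with shRFP). How reads were divided among copies and overlapping genes is unknown. The genes, both lists, the promoter words and the alternatives were chosen with earlier results of these data known. All 42 genes are named, and of the further 52 those past 2-fold and the 4 largest differences in each direction; Cdc7, Gmnn, Ssrp1 and Tk1 were chosen after their values were seen. Only the GC adjustment, the median ratio and the trimmed mean were tested on simulated data. The simulated GC trend was a straight line, and differences were planted only in genes of higher level. Scripts ran on Python 3.11.15 with matplotlib 3.10.9, scipy 1.17.1, pandas 2.3.3 and numpy 2.4.6.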

Additional observations from a re-analysis of the deposited data

How the results depend on the processing

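Alternatives changed the pseudocount, filter, scale, call, treatment of repeated symbols, base composition and gene set. No paired analysis was possible because each group had 1 library. Over the 42 replication genes, the count lower was 3 as reported, 0 after GC adjustment, 1 with pseudocount 5 and 7 at a 1.5-fold call, where 20% of evaluated genes were lower; none was higher under any of these. The 42 genes' median of -0.24 was -0.066 after GC adjustment and -0.12 with the trimmed mean divided out. On the trimmed-mean scale the role medians were -0.27 (origin binding and loading), 0.0097 (helicase ring), -0.038 (activation), -0.24 (polymerases), -0.032 (clamp and loader), 0.087 (Fen1, Lig1 and RPA), -0.29 (nucleotide supply) and -0.61 (Dtl and Slbp), and the median of all evaluated genes was 0.018. After GC adjustment the role medians were -0.028 (origin), -0.14 (helicase ring), -0.11 (activation), 0.10 (clamp and loader), -0.19 (polymerases), -0.037 (Fen1, Lig1 and RPA), -0.067 (nucleotide supply) and -0.34 (Dtl and Slbp). For the 52 further genes the lower count of 6 was 2 after GC adjustment, 3 with pseudocount 5, 3 on the trimmed-mean scale and 12 at 1.5-fold. The higher count of 1 was 0 after GC adjustment and 0 with pseudocount 5, and the median was -0.046 and -0.12 after GC adjustment and on the trimmed-mean scale. Evaluated genes called higher, 439 as reported, were 1117 at 1.5-fold, 252 at 5 TPM or more, 247 among protein-coding genes, 674 with pseudocount 0.1 and 167 with pseudocount 5. Those called lower, 916 as reported, were 300 after GC adjustment, 2591 at 1.5-fold, 1459 with pseudocount 0.1 and 267 with pseudocount 5. With the trimmed mean divided out the split was 537 higher and 656 lower. The cause of these shifts was not tested. Unknown depth limits every value.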
